A study of Mus musculus with 4 samples.

Results

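Olfactory bulb spots were examined that were rich in transcripts of olfactory sensory neurons and lay outside the spots rich in ensheathing glia transcripts. A spot is a barcoded patch of a Visium capture area, which collects the polyadenylated RNA of several cells or parts of cells. Spots with at least 500 unique molecular identifiers (UMIs, each standing for a captured molecule) were scored by the summed UMIs of Omp, S100a5, Gng13 and Stoml3 over all UMIs of the spot, and the top 10% of each library were taken. Spots in the top 10% of their library for Fabp7, Npy, Frzb, Prss56 and Mybpc1, which mark ensheathing glia, were left out. Spots with 10 or more UMIs of the mucosa genes Bpifb4, Bpifb6 and Gpx6 were left out as well. The members, chosen by these measured counts, were 185 of 4616 spots with at least 500 UMIs, out of 4713 spots in the deposited matrix. The score set their sensory transcripts, but 61 of the 185 also held 10 or more UMIs of mucosa genes that the rule had not used, so they are called sensory transcript-rich spots here and not axon-rich spots.

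The tissue came from 1 control mouse and 1 mutant mouse, both killed at 5 months. The mutant carried a transgenic soluble VEGFR1, a decoy that binds vascular endothelial growth factor (VEGF), under a tetracycline-regulated camk2a-tTa driver limited to the brain, with the blockade given as E13.5 of embryonic life. The labels call the other mouse a control and name none of its alleles. Fresh-frozen coronal sections of 10 µm were placed on 2 capture areas per mouse, 2 sections and 1 section for the control, 2 and 2 for the mutant. Barcode endings 1 to 4 number the 4 libraries and match no label, so no library stands for a mouse, the mice were not compared, and the libraries are not replicates of anything. Each value is given for libraries 1 to 4 in that order. Intervals are 95% intervals for counting error only, and within a summed count fewer cells of a type and less RNA per cell cannot be told apart.

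Olfactory sensory neurons sit in the nasal mucosa and send their axons through the nerve layer of the bulb, where ensheathing glia wrap them, into glomeruli, where they contact mitral, tufted and periglomerular cells. In their cilia an odorant receptor activates a G protein with the Gnal subunit, adenylyl cyclase 3 (Adcy3) makes cyclic AMP, and a channel built from Cnga2, Cnga4 and Cngb1 opens. Mature neurons are marked by Omp, the olfactory marker protein. Counted UMIs do not tell RNA in axons from RNA in cell bodies.

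The members numbered 57, 30, 54 and 44 in libraries 1 to 4, or 3.43%, 4.20%, 4.17% and 4.67% of kept spots. The top 10% by score had 460 spots, of which 204 were left out for ensheathing glia transcripts alone and 71 for mucosa transcripts. The mucosa exclusion removed 15, 0, 30 and 26 spots from libraries 1 to 4. Members were shallower than the other kept spots of their library, with medians of 4934, 6129.5, 6252 and 6089 UMIs against 8094, 7385, 9263 and 10041. Mitochondrial transcripts made up 12.2%, 10.2%, 9.77% and 9.47% of member UMIs and 8.86%, 9.52%, 7.27% and 7.39% of the UMIs of other spots, and the part of depth and RNA quality in the results was not tested. Of 2768 barcodes among kept spots, 1408 occurred in at least 2 libraries, and of the 184 barcodes of members 1 was shared.

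The score differed between libraries. The last spot inside the top 10% and the first one outside had 4306 and 4286 sensory UMIs per 1000000 UMIs in library 1, 3065 and 3058 in library 2, 1171 and 1169 in library 3, and 2244 and 2240 in library 4. A member of library 3 could thus be a spot that lay outside the top 10% of library 1. Median scores of members were 9325, 4668, 1938 and 3241 per 1000000, with highest scores of 50752, 44729, 10768 and 17059. The lowest members held 3, 8, 1 and 3 sensory UMIs, so membership at the lower end rested on few molecules. S100a5 supplied 57.9%, 57.2%, 48.3% and 47.4% of the score's UMIs and Omp 12.6%, 12.6%, 12.7% and 13.2%.

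**Figure D1:**
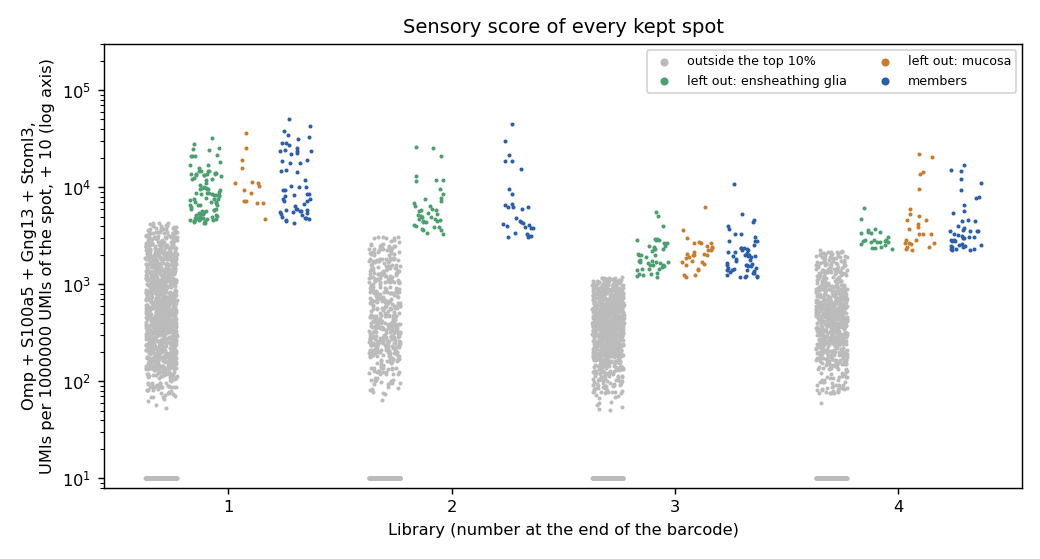
Each point is 1 kept spot; the vertical axis (log scale) is the sensory score in UMIs per 1000000 UMIs of the spot, with 10 added so that spots at 0 can be drawn, and the horizontal axis is the library. Members (blue) reached 50752 per 1000000 in library 1 and 10768 in library 3, and spots left out for ensheathing glia (green) or mucosa (orange) transcripts are drawn beside them.

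The rule genes are described first, with no reading of their difference, since they chose the spots. Levels are UMIs of a gene per 1000000 UMIs, summed over the spots of a group (CPM). Omp (ENSMUSG00000074006) stood at 1793, 1073, 278 and 609 CPM in members and at 77.7, 49.2, 27.7 and 47.6 CPM in the other kept spots. S100a5 (ENSMUSG00000001023), a calcium-binding protein of sensory neurons, stood at 8260, 4853, 1061 and 2186 CPM against 649, 503, 130 and 225 CPM. Gng13, a G protein gamma subunit, lay at 3187, 1759, 700.3 and 1343 CPM against 340, 268, 303 and 372 CPM, the narrowest gap of the 4 genes. Stoml3, a stomatin family membrane protein, lay at 1032, 799, 158 and 477 CPM against 36.2, 14.8, 12.7 and 32.6 CPM. All 4 genes had their highest member level in library 1 and their lowest in library 3.

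Genes outside the rule were compared by their CPM in members over that in other kept spots, with the spots left out for ensheathing glia or mucosa transcripts counted among the others, and a gene was called where this ratio was at least 2-fold in the same direction in all 4 libraries. The minimum for a gene was 200 UMIs over all kept spots, with 20 in every library. Of the 11818 genes that reached it, 142 were called higher (1.2% of genes tested) and 81 lower (0.685%). Genes could reach the minimum through the members in which they were high; when the other spots alone had to reach it, 127 of 11730 genes were higher (1.08%) and 81 lower (0.691%). In single libraries, 9.15%, 9.71%, 4.32% and 7.17% of these genes were at least 2-fold higher and 17.8%, 16.9%, 10.8% and 11.9% at least 2-fold lower. The median gene had a log2 ratio of -0.21, -0.14, -0.15 and -0.10, and with ratios centred on that median the split was 210 higher and 46 lower. Of the 81 lower genes, 36 had no member UMI in at least 1 library. Among the 3603 genes with at least 10 UMIs expected in the members of each library, 10 were higher (0.278%) and 18 lower (0.5%).

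By the library in which the ratio was nearest to 1, the 15 leading genes were Umodl1, Cnga2, Gfy, Cyp2g1, Nrn1l, Cbr2, Muc2, Galm, Cyp2a5, Kirrel2, Cyp2f2, Gramd1c, Sult1c1, Rtp1 and Slc27a2. Of those that belong to a gene list, Cnga2, Rtp1 and Muc2 reached the minimum only through the members, which favoured their place in this ranking. Gfy (ENSMUSG00000095276), which encodes the Golgi protein goofy of olfactory neurons, stood at 741, 423, 93.8 and 294 CPM in members and at 19.4, 13.4, 8.45 and 17.9 CPM in other spots. Its ratio was 38.1 (31.7 to 45.9), 31.5 (22.2 to 44.6), 11.1 (7.22 to 16.6) and 16.5 (12.6 to 21.5). Umodl1 (ENSMUSG00000054134), a uromodulin-like membrane protein, stood at 342, 203, 64.5 and 193 CPM against 7.92, 4.75, 4.92 and 11.1 CPM. Both were high in the members of all 4 libraries, and in both the members of library 3 were lowest.

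Of 12 genes of odor transduction, 8 reached the minimum, and Cnga2, Cnga4 and Rtp1 did so only through the UMIs of the members. These 3 passed the call, which their entry favoured, and of the 5 genes that reached the minimum in the other spots alone none did. As a description that carries the same bias, the list median of the log2 ratio was 3.66, 2.65, 0.93 and 2.05. Cnga2 (ENSMUSG00000005864), the main subunit of the cyclic nucleotide-gated channel, stood at 140.1, 59.6, 26.4 and 77.8 CPM against 6.07, 2.77, 1.39 and 6.17 CPM, a ratio of 23.1 (15.4 to 34.1), 21.5 (8.56 to 52.1), 18.9 (7.43 to 44.9) and 12.6 (7.42 to 20.8). Rtp1, a chaperone that brings odorant receptors to the cell surface, stood at 129.8, 59.6, 11.7 and 98.1 CPM against 3.54, 2.57, 2.71 and 5.52 CPM. Cnga4, a further channel subunit, had ratios of 30.7, 64.1, 4.29 and 14.4, of which the value of library 3 rested on 3 UMIs (0.829 to 14.1). The ratio of Gnal was 11 (9.27 to 13.1), 7.64 (5.61 to 10.3), 1.63 (1.08 to 2.37) and 3.25 (2.52 to 4.14), and that of Adcy3 was 6.55, 5.22, 1.91 and 3.51, both under 2 in library 3. Pde4a, a cyclic AMP phosphodiesterase, lay at ratios of 1.47, 0.887, 0.794 and 1.07. The genes with few UMIs outside members, Cngb1, Ano2, Slc24a4 and Rtp2, did not reach the minimum and are not in the count.

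Odorant receptor genes were summed over 1094 rows, since they form a multigene family whose reads can be split among near-identical copies. Their sum stood at 1817, 1204, 284 and 816 CPM in members and at 87.3, 73.4, 34.5 and 60.1 CPM in other spots. The ratio was 20.8 (18.7 to 23.1), 16.4 (13.8 to 19.5), 8.23 (6.53 to 10.3) and 13.6 (11.6 to 15.8). A member held a median of 4, 2.5, 0 and 1 receptor UMIs and at most 46, 65, 26 and 34, so that a few spots carried much of the sum. In the spot with the most different receptors, 34, 43, 15 and 23 receptor genes had a UMI.

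**Figure D2:**
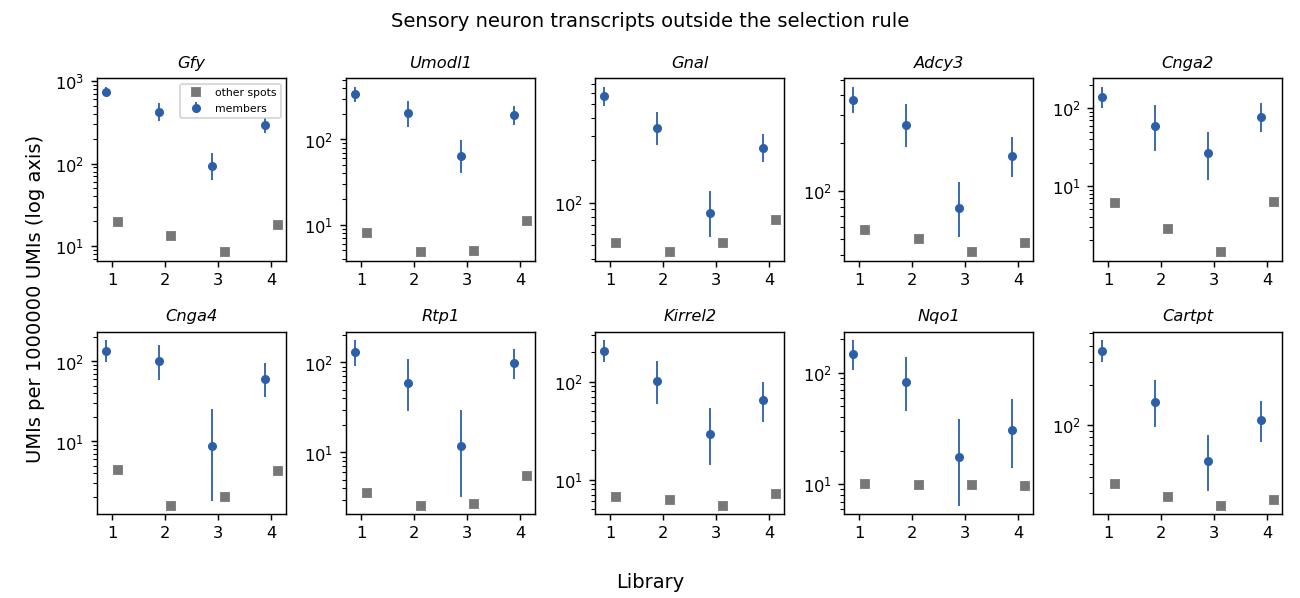
For 10 genes picked from the sensory lists outside the rule, points are the CPM summed over members (blue, with 95% Poisson intervals) and over the other kept spots (grey), by library, on log axes. List genes below the other spots in some libraries, such as Kirrel3, Pde4a and Ebf1, are not drawn. Cnga2, Cnga4 and Rtp1 reached the minimum only through members. Members lay above the other spots in each panel and library, and in library 3, where the gap was narrow for Gnal and Nqo1, Cnga4 rested on 3 UMIs.

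Among genes of axon adhesion and guidance, 1 of 9 tested was called higher and none lower, with list medians of 0.93, 0.70, 0.45 and 0.16. The gene was Kirrel2 (ENSMUSG00000036915), a homophilic adhesion molecule by which like sensory axons sort into glomeruli, at 208, 101.4, 29.3 and 64.3 CPM against 6.61, 6.13, 5.41 and 7.14 CPM. Kirrel3, its counterpart on complementary axons, stood at 44.4, 95.4, 17.6 and 20.3 CPM against 87.6, 81.7, 39.0 and 37.5 CPM. Nqo1, a marker of axons from the dorsal zone of the epithelium, had ratios of 14.5 (10.0 to 20.6), 8.44 (4.31 to 15.5), 1.77 (0.638 to 3.97) and 3.13 (1.38 to 6.20). Ncam1, a general neural adhesion molecule, had ratios of 1.91, 1.63, 1.47 and 1.70. The ratio of the sorting molecule Kirrel2 was thus above that of Kirrel3 in all 4 libraries, on counts of 6 to 61 UMIs. Kirrel3 had the higher level in other spots, so the ratios do not compare the genes on sensory axons. Of the 61, 17, 10 and 19 Kirrel2 UMIs of members, 59, 16, 10 and 17 lay in members with 10 or more mucosa UMIs.

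Of 11 tested sensory neuron identity genes, Gfy, Umodl1 and Cartpt were called higher and none lower, with list medians of 1.13, 1.06, 0.44 and 0.75. Cartpt, which encodes the peptide precursor of CART, stood at 369, 149, 52.7 and 108 CPM against 35.3, 28.1, 24.0 and 26.5 CPM. Ebf1, a transcription factor of the EBF family that acts in olfactory neurons and that reached the minimum only through the members, stood at 44.4, 29.8, 5.86 and 23.7 CPM against 3.15, 3.76, 7.55 and 6.39 CPM. Its member level was above that of other spots in libraries 1, 2 and 4 and rested on 2 UMIs in library 3. Genes of immature sensory neurons showed no call in either direction among 9 tested, with list medians of -0.55, -0.64, -0.45 and -0.20. Gap43, a growth cone protein of that list, had ratios of 0.656 (0.444 to 0.934), 0.563 (0.306 to 0.95), 0.648 (0.463 to 0.881) and 0.695 (0.5 to 0.944). Gng8, a G protein gamma subunit of immature olfactory neurons, had too few UMIs for the count and stood at 27.3, 11.9, 20.5 and 91.4 CPM in members, its highest value in library 4. Of this list's genes with at least 20 UMIs, 1, 0, 1 and 1 were at least 2-fold higher in libraries 1 to 4. At least 2-fold lower were 1, 1, 0 and 0, so the medians do not stand for each gene of the list.

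EBF proteins bind the palindromic core CCCNNGGG, which reads alike on both strands, and the 250 bases before the start of 11 sensory neuron genes were searched for it after their levels had been seen. The 11 were the sensory rule genes and the genes of the sensory lists called higher here, of which Cnga2, Cnga4 and Rtp1 reached the minimum only through members. RefSeq promoter entries on GRCm38.p6 were found for 9 of the 11, and 5 of these held the core. Of the 27025 genes in the table, 13.4% held it. Since the 11 were chosen from these data, the 2 shares are no test of enrichment. These were Gng13, Cnga2, Gfy, Umodl1 and Cartpt, whereas S100a5, Stoml3, Cnga4 and Kirrel2 had no match in the window. The stretches of Gfy, Umodl1, Cnga2 and Gng13 are shown on the strand of the gene because 3 of their genes lead the list of higher genes, with the core in capitals and 15 flanking bases in lower case on each side. They lie at chr7:45179616-45179653 (minus strand) for Gfy, chr17:30954512-30954549 (plus) for Umodl1, chrX:71991768-71991805 (plus) for Cnga2 and chr17:25717062-25717099 (plus) for Gng13. The cores begin 41, 156, 66 and 95 bases before the start of the gene. That of Gng13 overlaps another match shifted by 1 base and lies before 1 of the gene's 2 listed starts. A match is a description of these letters and not of binding.
Gfy: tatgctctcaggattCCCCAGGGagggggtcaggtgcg
Umodl1: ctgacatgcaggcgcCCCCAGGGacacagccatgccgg
Cnga2: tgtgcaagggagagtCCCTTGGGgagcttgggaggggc
Gng13: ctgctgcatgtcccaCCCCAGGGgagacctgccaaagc

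Transcripts of the nasal mucosa were also higher in members, although spots with 10 or more UMIs of Bpifb4, Bpifb6 and Gpx6 had been removed. Of 7 tested mucosa genes outside the rule, 6 were called higher and none lower, or 5 of the 6 that reached the minimum in the other spots alone (Muc2 did not), with list medians of 4.84, 4.23, 2.72 and 3.41, the highest of the 26 lists in each library. Over the whole list of 17 genes, the summed level was 8721, 3261, 1881 and 4301 CPM in members and 821, 151, 737 and 1382 CPM in other spots, with Ugt2a1 at 0 UMIs in members. Cyp2a5 (ENSMUSG00000005547), a cytochrome P450 abundant in olfactory mucosa, stood at 2538, 900.3, 448 and 1188 CPM in members and at 75.2, 47.3, 74.7 and 144 CPM in other spots. Its ratio was 33.8 (30.7 to 37.2), 19.0 (15.4 to 23.4), 6.0 (5.02 to 7.13) and 8.27 (7.33 to 9.31). Cyp2g1, a P450 of the olfactory epithelium, had ratios of 35.9, 27.7, 10.1 and 15.3, and Cbr2, a carbonyl reductase, of 30.1, 24.7, 7.37 and 13.1. Muc2, which encodes a secreted mucin, stood at 92.2, 47.7, 29.3 and 98.1 CPM against 2.61, 2.37, 4.18 and 9.20 CPM. The rule capped its own mucosa genes in members, among which Bpifb4 stood at 294, 143, 120.1 and 115 CPM.

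The mucosa transcripts were concentrated in part of the members. By the UMIs of 10 mucosa genes outside the rule (Cyp2a5, Cyp2g1, Cyp1a2, Ugt2a1, Krt18, Krt8, Muc2, Sec14l3, Sult1c1 and Cbr2, chosen after their levels had been seen), 35 members held none, 89 held 1 to 9 and 61 held 10 or more. Members with 10 or more numbered 30, 9, 7 and 15, or 52.6%, 30%, 13% and 34.1% of the members of libraries 1 to 4. Among the 4156 spots outside the top 10% by score, which were deeper, 0.842% held 10 or more. Of the 204 spots left out for ensheathing glia transcripts alone, 40 (19.6%) held 10 or more, so this class was not particular to members. As a description, since the score chose the spots and the 10 genes were picked after their levels had been seen, Spearman's rho between score and mucosa genes across members thinned to 2000 UMIs was 0.82, 0.69, 0.24 and 0.59 (55, 28, 45 and 43 spots). Both are shares of the same spot's UMIs, and the value of library 3 was weak. Periglomerular genes had rho values of -0.59, -0.28, 0.11 and -0.40 with the score in the same spots.

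**Figure D3:**
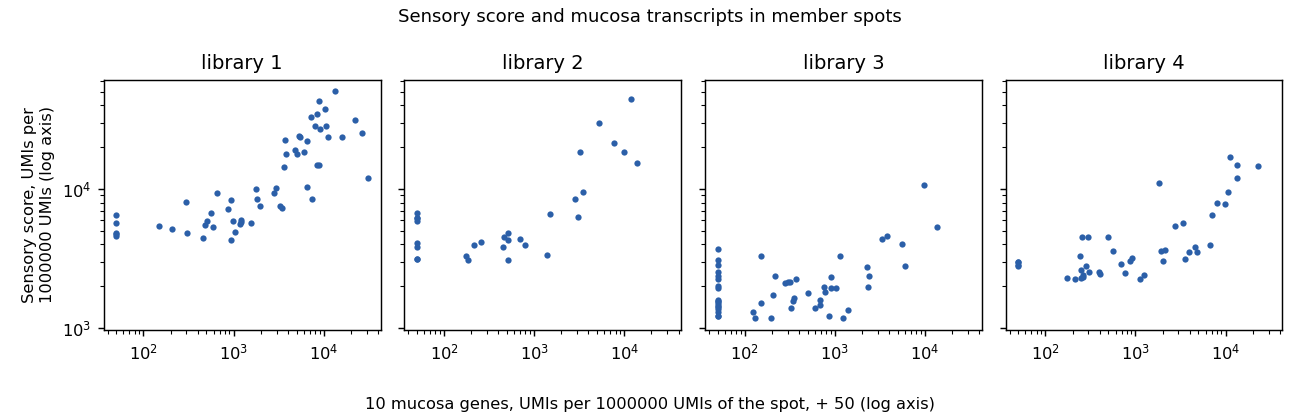
Each point is 1 member; the horizontal axis is the sum of 10 mucosa genes per 1000000 UMIs of the spot, with 50 added, and the vertical axis is the sensory score, both on log scales. The highest scores of each library lay at high mucosa levels, and the rank correlation over members thinned to 2000 UMIs was 0.82, 0.69, 0.24 and 0.59 in libraries 1 to 4.

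Transduction and receptor transcripts were concentrated in the members rich in mucosa transcripts, and the part of mucosal RNA in the member levels above was not tested. Of the UMIs of Cnga2, Rtp1 and Rtp2 in members, 217 lay in the 61 members with 10 or more mucosa UMIs, 12 in the 89 with 1 to 9 and 1 in the 35 with none. Odorant receptor UMIs numbered 948, 105 and 19 in the same classes. In the spots left out for ensheathing glia transcripts alone, the same classes held 70, 41 and 4 UMIs of Cnga2, Rtp1 and Rtp2. They held 340, 222 and 25 receptor UMIs. Gfy stood at 1254, 1051, 446 and 748 CPM in the members with 10 or more mucosa UMIs, and at 195, 145, 29.6 and 35.6 CPM in those with 1 to 9. S100a5 stood at 12129, 9499, 1616 and 3249 CPM with 10 or more mucosa UMIs, at 4025, 2769, 972 and 1555 CPM with 1 to 9, and at 3201, 2486, 919 and 1716 CPM with none. It was thus highest in the same class. Since S100a5 is part of the score that chose the members, its gap between classes is not compared with that of Gfy. The number of S100a5 UMIs per Omp UMI was 4.0 (3.62 to 4.44), 3.51 (2.91 to 4.26), 2.07 (1.42 to 3.07) and 2.46 (2.02 to 3.01) with 10 or more mucosa UMIs. With 1 to 9 it was 9.06 (6.76 to 12.4), 7.90 (5.35 to 12.1), 5.47 (3.82 to 8.04) and 7.49 (5.25 to 11). Both genes are part of the score, so a member with few Omp UMIs had to hold other score genes, and nothing is read from this ratio. With none it was 19.75, 11.3, 4.59 and 16, on 4, 7, 17 and 2 Omp UMIs.

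**Figure D4:**
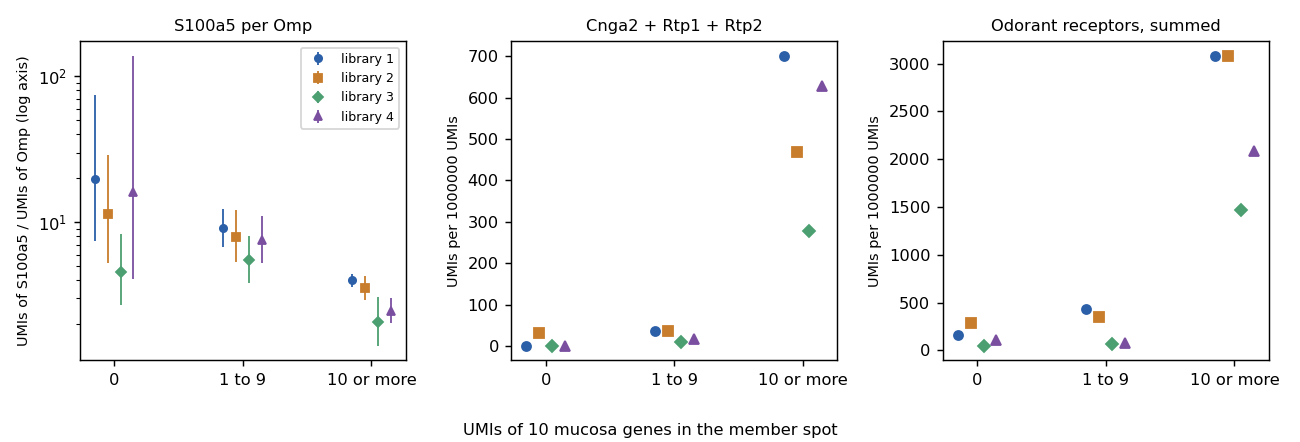
Members are split on the horizontal axis by their UMIs of 10 mucosa genes; panels give S100a5 UMIs per Omp UMI (log axis, 95% intervals), Cnga2, Rtp1 and Rtp2 summed in CPM, and all odorant receptors summed in CPM, with 1 marker shape per library. The S100a5 ratio was between 2.07 and 4.0 in the class with 10 or more mucosa UMIs, and the transduction and receptor levels were highest there in each library.

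With the 61 members of that class set aside, 0 of the 8 odor transduction, 9 adhesion and 11 identity genes tested with all 185 were called higher. The minimum was applied anew, and Cnga2, Cnga4, Rtp1 and Ebf1 had reached it only through members. A missing call of these genes is thus no result. The 5 transduction genes that reached it in the other spots alone had no call with all 185 either, so the 0 of 8 is not read. Kirrel2, Gfy, Umodl1 and Cartpt did reach it in the other spots alone. For Gfy the missing call does not mean a level like that of other spots. Gfy stood at 195, 145, 29.6 and 35.6 CPM in members with 1 to 9 mucosa UMIs, on 22, 12, 6 and 6 UMIs. In members with none it stood at 0, 94.4, 23.6 and 0 CPM, and in other spots at 19.4, 13.4, 8.45 and 17.9 CPM. Over all genes, 120 of 11776 were higher in the remaining 124 members (1.02%) and 89 lower (0.756%), of which 66 and 36 were also called with all 185. The transduction list medians ranged from -0.52 to 0.95. Of the 7 mucosa genes, of which Muc2 had reached the minimum only through members, Sult1c1 was still called. Among the lists, the other higher calls that remained were those of Apod and Pmp22, which ensheathing glia express, of Cd9, a tetraspanin in the phagocyte list, and of 5 of 9 leptomeningeal genes. Vim, Apoe and Cldn5 were called higher in these 124 spots and not in all 185.

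Leptomeningeal transcripts formed the other large group. Of 9 tested genes, Dcn, Col1a1, Col1a2, Slc6a13 and Lum were called higher and none lower, with list medians of 2.84, 2.44, 1.27 and 1.42. Dcn, which encodes the matrix proteoglycan decorin, stood at 379, 489, 290.1 and 396 CPM in members and at 44.8, 51.4, 119.9 and 119.9 CPM in other spots. Ptgds, the prostaglandin D synthase of the meninges, stood at 16797, 21946, 12269 and 15052 CPM against 2770, 3705, 7491 and 5275 CPM, and its ratio of 1.64 in library 3 kept it from the count. The collagen gene Col1a1 had ratios of 8.33 (4.97 to 13.4), 7.38 (3.57 to 14.1), 3.03 (2.42 to 3.76) and 2.51 (1.89 to 3.27). Of the members, 56.1%, 43.3%, 16.7% and 31.8% were also in the top 10% of their library for the summed leptomeningeal genes. The sum of the list was 18010, 23318, 14391 and 16781 CPM in members and 2958, 3965, 8361 and 5943 CPM in other spots. In spots left out for ensheathing glia transcripts alone it was 13280.5, 13949, 17315 and 9798 CPM, so high levels were not particular to members, and those of library 3 lay above them. With S100a5 left out of the score, the list's median nearest to 0 was -0.17, so this group depended on how the spots were chosen.

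Blood and vessel transcripts were also present. Of 4 tested red blood cell genes, Hbb-bt and Hba-a1 were called higher, with list medians of 2.19, 3.04, 1.02 and 1.75. Hba-a1, an alpha globin, stood at 830.1, 996, 633 and 968 CPM against 183, 116, 313 and 257 CPM, and the globin genes have near-identical copies. The sum of the red blood cell list was 3638, 4287, 2749 and 4047 CPM in members. It was 3768, 2219, 2643 and 2857 CPM in spots left out for ensheathing glia transcripts alone. None of 6 mural and 8 endothelial genes was called in either direction, with list medians of 1.41, 1.44, 0.55 and 0.78 for mural cells and 0.75, 0.41, 0.07 and 0.58 for endothelium. Rgs5, a pericyte signalling regulator, had ratios of 3.98, 2.72, 1.72 and 2.32, under 2 in library 3 alone.

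Part of the ensheathing glia genes that the rule had not used passed the call. Of 8 tested, Apod, Fbln2 and Pmp22 were called higher and none lower, with list medians of 1.02, 0.73, 1.03 and 1.14. Apod (ENSMUSG00000022548), which encodes a lipid carrier, stood at 3413, 4054, 3115 and 3678 CPM in members, at 652, 689, 1486 and 1315 CPM in other spots and at 4066, 4425, 6495 and 7401 CPM in spots left out for ensheathing glia transcripts alone. Members over these left-out spots gave ratios of 0.839 (0.776 to 0.907), 0.916 (0.829 to 1.01), 0.480 (0.445 to 0.516) and 0.497 (0.458 to 0.540). Fabp7, a gene of the exclusion rule, stood at 1462, 1258, 557 and 518 CPM in members.

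Against the spots left out for ensheathing glia transcripts, the rule gene Omp in members had ratios of 1.79, 1.59, 1.64 and 3.78. Omp is part of the score that chose both groups, so this ratio is not read. In library 3 the score genes S100a5, Gng13 and Stoml3 stood at 1061, 700 and 158 CPM in members. They stood at 1014, 791 and 64.5 CPM in these left-out spots. Gfy, outside the rule, was higher by a ratio of 2.58 (2.06 to 3.25), 1.86 (1.28 to 2.73), 3.2 (1.54 to 7.30) and 49.4 (8.63 to 1972), the last against 1 UMI in the 24 left-out spots of library 4. Adcy3 gave 1.95 (1.45 to 2.62), 1.92 (1.18 to 3.17), 1.59 (0.835 to 3.11) and 5.56 (2.23 to 17.9), with an interval that included 1 in library 3. Cnga2 gave 1.49 (0.941 to 2.35), 1.09 (0.423 to 2.76), 3.0 (0.749 to 17.2) and 13.1 (2.12 to 538), and in library 4 alone the interval excluded 1. Mucosa transcripts moved the same way, with Cyp2a5 at ratios of 2.92 (2.58 to 3.32), 1.08 (0.866 to 1.35), 3.19 (2.29 to 4.51) and 9.05 (5.89 to 14.6), and their part in these differences was not tested.

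Presynaptic, mitral and tufted, and granule cell lists had medians below 0 in each library, with no gene past the call. The medians were -1.16, -0.98, -0.74 and -1.04 for presynaptic terminals, -1.39, -0.85, -0.58 and -0.94 for mitral and tufted cells, and -1.51, -0.78, -0.52 and -0.97 for granule cells, over 10, 10 and 9 tested genes. With S100a5 left out of the score, the presynaptic median nearest to 0 was 0.14, so that the presynaptic direction did not hold there. Slc17a7, the vesicular glutamate transporter of mitral and tufted cells, stood at 171, 382, 404 and 318 CPM in members and at 934, 827, 758 and 768 CPM in other spots, a ratio of 0.183, 0.462, 0.533 and 0.414. Pcp4, a calmodulin-binding protein of granule cells, had ratios of 0.249, 0.433, 0.527 and 0.317, and the synaptic vesicle protein Syp had 0.407, 0.515, 0.598 and 0.374. No member was in the top 10% of its library for granule, mitral and tufted or forebrain excitatory genes. The low levels were shared by the spots left out for ensheathing glia transcripts alone. Their presynaptic sum was 3635, 4885, 3029 and 3131 CPM, beside 3901, 4877, 4351 and 3682 CPM in members and 8985, 8713, 7389 and 7436 CPM in other spots. Their mitral and tufted and granule sums also lay below those of other spots in each library.

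Periglomerular genes were nearer to the level of other spots, with list medians of -0.30, 0.15, -0.41 and -0.40 (the last 0.00 with zeros set to 3 UMIs) and no call among 10 tested. Th, the rate-limiting enzyme of dopamine synthesis, stood at 379, 459, 96.7 and 122 CPM in members and at 588, 534, 123 and 116 CPM in other spots, with ratios of 0.644 (0.529 to 0.777), 0.860 (0.677 to 1.08), 0.784 (0.538 to 1.11) and 1.05 (0.733 to 1.47). Only in library 1 did the interval exclude 1. Trh, which encodes thyrotropin-releasing hormone, had ratios of 0.913, 1.5, 1.88 and 1.22. In members with 10 or more mucosa UMIs Th stood at 296, 338, 55.7 and 27.7 CPM, and in those with 1 to 9 at 471, 496, 98.7 and 160.2 CPM.

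The 15 lowest genes by the library nearest to 1 were Chrnb4, Galntl6, Lysmd1, Zfp383, Fa2h, Myrf, Rimbp2, Prkab2, Klhl30, Rian, Lnx1, Hrh3, Xrcc3, Fat3 and Ino80, all with at most 11 member UMIs in any library. Chrnb4, a nicotinic receptor subunit, had 0 member UMIs in all 4 libraries and 10.1, 12.1, 7.38 and 5.63 CPM in other spots, against floors of 3 UMIs at 10.2, 17.9, 8.79 and 10.2 CPM in members, so a difference was not detectable at this depth in any of the 4. Nrgn, which encodes neurogranin of forebrain excitatory neurons, was the single list gene called lower, at 30.7, 59.6, 530.4 and 393 CPM against 114, 154, 1200.3 and 1266 CPM. The long noncoding RNA Rian, expressed in neurons, had ratios of 0.335, 0.335, 0.309 and 0.205. Cacna1a, a presynaptic calcium channel, had 0.358, 0.271, 0.471 and 0.336, and the neuropeptide gene Vip 0.269, 0.436, 0.307 and 0.458. Immediate early genes, induced by neuronal activity, had list medians of -1.06, -0.59, -0.57 and -0.69 with no call among 8 tested.

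Among genes with at least 10 member UMIs expected in each library, those higher include Kctd12, a GABA-B receptor auxiliary subunit, at 383, 382, 469 and 349 CPM against 121, 111, 148 and 137 CPM. Its ratios of 3.15, 3.45, 3.17 and 2.55 varied less between libraries than those of the sensory genes. The matrix-binding proteins Igfbp5 and Igfbp7 had ratios of 3.2, 3.18, 2.22 and 2.24 and of 3.42, 2.69, 2.38 and 2.40. Plekhb1, a pleckstrin homology protein first described in photoreceptors, had 4.73, 4.21, 2.17 and 2.27, and Cd9 4.28, 3.78, 2.55 and 2.12.

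**Figure D5:**
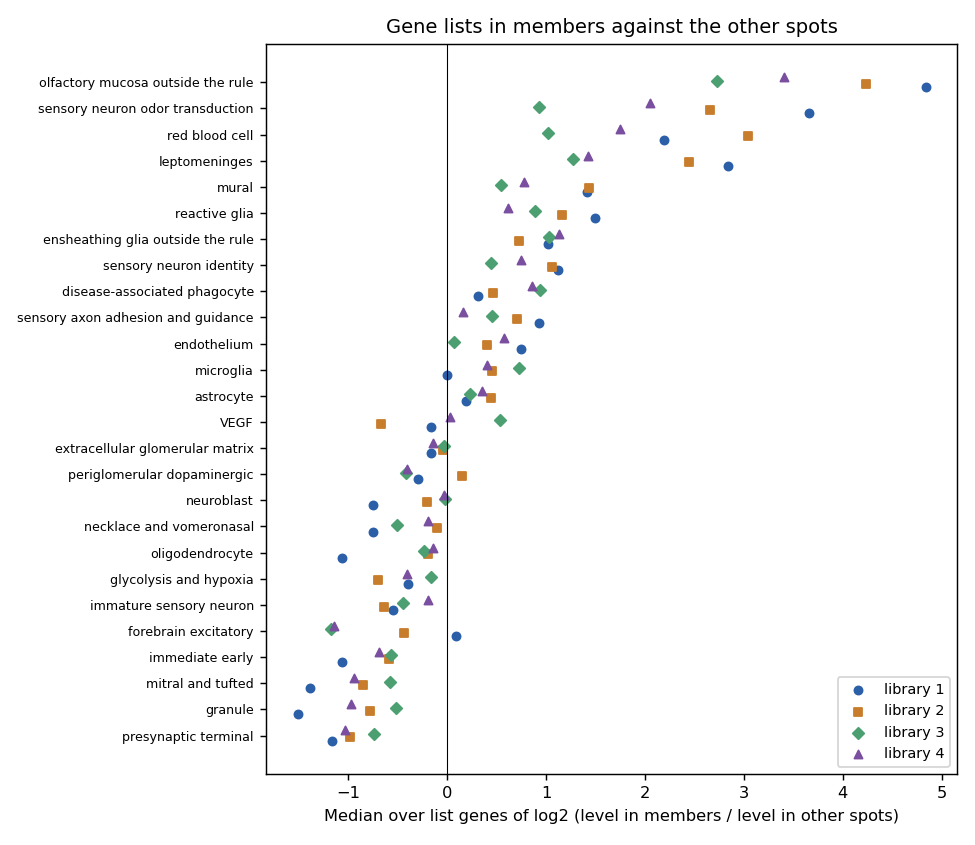
For each of 26 gene lists the horizontal axis gives the median over the list's genes of the log2 ratio of the level in members to that in other kept spots, with 1 marker per library. Mucosa, odor transduction, red blood cell and leptomeningeal lists lay highest and presynaptic, granule and mitral or tufted lists lowest; the median of all tested genes was between -0.21 and -0.10.

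VEGF genes, which the study targeted, gave no call in either direction among 5 tested, with list medians of -0.16, -0.67, 0.54 and 0.03. Vegfa (ENSMUSG00000023951), the main ligand, stood at 30.7, 35.8, 264 and 176 CPM in members and at 53.8, 54.4, 186 and 162 CPM in other spots, and only in library 3 did the interval of its ratio, 1.42 (1.13 to 1.75), exclude 1. Flt1, which encodes VEGFR1, had ratios of 0.900 (0.429 to 1.67), 0.508 (0.104 to 1.51), 0.592 (0.191 to 1.40) and 2.37 (1.36 to 3.89). The sources do not say whether reads of the transgene count as Flt1. Reactive glia genes had list medians of 1.5, 1.16, 0.89 and 0.62 with no call among 5 tested. Serpina3n, a protease inhibitor of reactive astrocytes, stood at 133, 65.6, 1023 and 836 CPM in members against 26.8, 30.1, 551 and 437 CPM. Lyz2, the lysozyme of phagocytes, stood at 44.4, 71.5, 1222 and 1046 CPM against 25.8, 26.5, 466 and 422 CPM, so both genes lay higher in libraries 3 and 4 than in libraries 1 and 2, in members and in other spots alike.

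The remaining lists gave few calls. The list medians over the 4 libraries lay between 0.19 and 0.45 for astrocytes, between 0.00 and 0.73 for microglia, and between 0.31 and 0.93 for disease-associated phagocytes. They lay between -1.06 and -0.14 for oligodendrocytes (the lower value being -0.50 with genes at 0 set to 3 UMIs), between -0.75 and -0.02 for neuroblasts, and between -0.75 and -0.10 for necklace and vomeronasal genes. Forebrain excitatory genes ranged from -1.18 to 0.09 (library 2 at -0.44, or 0.21 with zeros set to 3 UMIs), glycolysis and hypoxia genes from -0.70 to -0.16, and genes of the extracellular matrix of glomeruli from -0.16 to -0.03. Among these, Cd9 of the phagocyte list and Nrgn of the forebrain list were the only genes called.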

How the data were processed

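Visium libraries of olfactory bulb were analysed from 1 pooled matrix, whose deposited values are raw UMI counts for each gene in each spot. Per the file headers, Space Ranger 1.3.1 wrote it, with GRCm39 as the build per the submitters' processing notes. The matrix has 32285 genes, a number that leaves the build uncertain, and no read filter is stated. From these counts, spots with at least 500 UMIs were kept and members were chosen by the rule stated in the report. UMIs were summed per library and group, with exact Poisson intervals for levels, conditional binomial intervals for ratios and a prior count of 0.5 in log2 ratios. List medians used genes with at least 20 UMIs in the library. No test between conditions was run, since the libraries carry no condition and spots are not replicates. A chi-square statistic on the summed UMIs of the kept spots was computed for every pair of libraries, as a description without a p-value. The statistic over degrees of freedom was 2.71 for libraries 1 and 2 and 3.05 for libraries 3 and 4. For the other pairs it lay between 22.5 and 44.0.

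The members and the 26 gene lists were chosen with earlier results of these data known. Genes named are rule genes, list genes, and the 15 highest and 15 lowest called genes, by the ratio nearest to 1; the lists of genes with at least 10 expected UMIs, the minimum met by other spots alone, the 10 mucosa genes and the promoter search were added after values had been seen. Mitochondrial, ribosomal protein and haemoglobin genes and unnamed gene models were not ranked. Alternatives changed the score, the exclusions, the depth, the filters and the fold, and left out each library in turn. The calculations were tested on simulated data, in Python 3.11.15 with numpy 2.4.6, scipy 1.17.1 and pandas 2.3.3. Promoter sequences are RefSeq's on GRCm38.p6, and no other coordinates are printed. No spatial positions or images were used.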

Additional observations from a re-analysis of the deposited data

Results flagged for a closer look

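Spots under 500 UMIs entered no comparison, and those of library 1 held sensory transcripts above the level that a count of 0 allows. In its 85 such spots, with 23554 UMIs in all, 4 UMIs of Omp, S100a5, Gng13 and Stoml3 were counted, or 169.8 per 1000000 UMIs, against a limit of 127.4 set by 3 UMIs. This level lay below the 1103 per 1000000 UMIs of the kept spots of library 1 that were not members. The 3, 5 and 4 such spots of libraries 2, 3 and 4 held 0 of these UMIs, with limits of 2890, 1751 and 2294 per 1000000.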

How the results depend on the processing

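No paired analysis was possible because the libraries match no label. Of the counts of 142 higher genes, 81 lower genes and 185 members, the numbers over 1.5 times away were as follows; the cause was not tested unless the setting itself changes spots, genes or fold. The top 5% gave 198 lower genes and 91 members, and the top 20% gave 26 higher, 14 lower and 520 members. A score without S100a5 gave 26 higher, 38 lower and a leptomeningeal list value of -0.17 in place of 1.27. Without the ensheathing glia exclusion there were 311 higher, 123 lower and 389 members. Leaving out spots with 1 or more UMIs of the mucosa rule genes, an alternative added later, gave 31, 174 and 66. Spots thinned to 2000 UMIs gave 30 higher and 47 lower, and members chosen on a random split of the UMIs, with levels from the rest, gave 73 and 33. Centred ratios gave 46 lower and the mean of per-spot CPM 149 lower. Minimums of 1000 and 50 UMIs per gene gave 56 and 275 higher and 37 and 279 lower. The setting of 50 UMIs also dropped the minimum per library, which left 14530 genes to test. Thresholds of 1.5-fold and 4-fold gave 394 and 18 higher, 448 and 2 lower. Genes with 10 expected UMIs gave 10 higher and 18 lower, and zeros set to 3 UMIs left 48 lower, both added later. Without library 2, 3 or 4 there were 168, 221 or 180 lower genes, and without library 3 there were 262 higher. Stricter minimums and thinning gave lower counts in both directions, more so for the higher genes. These counts are not shares, since fewer genes were tested: 7532 after thinning, 7328 at 1000 UMIs and 3603 with 10 expected UMIs, against 11818. The mucosa list stayed over 1 log2 unit in each library in 19 of 20 alternatives, the leptomeningeal list in 16 and the red blood cell list in 10. Depth limits low genes: 3 UMIs in the members of a library correspond to between 8.79 and 17.9 CPM.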

Other observations

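The 71 spots left out for mucosa transcripts were counted among the other kept spots and were not described on their own. Of these, 60 held 10 or more UMIs of the 10 mucosa genes outside the rule, and together those 60 held 470 odorant receptor UMIs and 104 UMIs of Cnga2, Rtp1 and Rtp2. Omp stood at 1905, 272 and 855 CPM in those left out of libraries 1, 3 and 4, beside 1793, 278 and 609 CPM in the members of the same libraries, and Bpifb4 stood at 1109, 4136 and 10791 CPM. In the pooled UMIs of kept members, the receptor gene with the most UMIs was Olfr3 in libraries 1 and 2, at 35 and 22 UMIs, Olfr1257 in library 3, at 8, and Olfr1507 in library 4, at 16.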
